A study of Mus musculus with 25 samples.

Results

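Pitx1, Pitx3, Prrx1, Prrx2, Alx1, Alx4 and Shox2 are paired-type homeobox genes. All but Pitx3 are genes of limb or facial mesenchyme. The rows of all 7 genes were taken from 12 lists of H3K27me3 peaks by gene symbol, as the authors had assigned peaks to genes. Of the 7 genes, 5 had at least 1 peak, among 6092 genes with an assigned peak, and they held 146 of the 34244 peaks. Pitx3 and Prrx1 had none. The median width of the members' peaks was 888 bp, compared with 735 bp for all peaks, and 55.5% of them lay in promoter classes, compared with 47.2%. Alx1 alone held 38 of these 81 promoter peaks, Pitx1 17, Shox2 14, Alx4 9 and Prrx2 3. Their peaks of any class numbered 42, 29, 45, 25 and 5.

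The lists come from ChIP sequencing (ChIP-seq) of regenerating myofibers of the mouse tibialis anterior (TA), a hindlimb muscle, at 14 days post injury (dpi). All mice carried the mitochondrial reporter mito-Dendra2 and Pax7-Cre(ERT2), a recombinase that tamoxifen (75 mg/kg, daily for 5 days) switches on in muscle stem cells, and 50 µL of 1.2% BaCl2 was injected 2 days later to injure the muscle. Wild-type myofibers were compared with mfn2-/- myofibers, which lack the mitochondrial fusion protein mitofusin 2, with vhl-/- myofibers, which lack the protein that targets HIF1α for degradation, and with HIF1dPA myofibers, in which a form of HIF1α that is not degraded is expressed. For either mark, 3 libraries were made from each genotype. The recombinase acts in stem cells and their progeny, so other nuclei in the preparation keep their alleles. The libraries of a genotype were biological replicates, stated to be separate mice for wild-type and mfn2-/-, and the labels do not give the ages of the mice.

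H3K27me3, trimethylation of lysine 27 of histone H3, is laid down by Polycomb repressive complex 2 and marks genes that are kept silent, many of them developmental regulators with CpG-rich promoters. Paired-type homeobox proteins are transcription factors that bind DNA through a homeodomain. Pitx1 sets hindlimb identity and Pitx3 acts in lens, dopaminergic neurons and differentiating muscle. Prrx1 and Prrx2 act in limb bud and facial mesenchyme, where Prrx1 also marks connective tissue progenitors. Alx1 and Alx4 pattern the facial skeleton, and Alx4 also the anterior limb bud. Shox2 is needed for the proximal limb skeleton and the cardiac pacemaker.

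The sequences just upstream of a transcription start are shown for the genes in the RefSeq promoter table, to set the window that held peaks (Prrx2) beside those that held none. Each is the 250 bases before the start that this table gives, on build GRCm38.p6, which is the mm10 of the peak lists, written 5′ to 3′ on the gene's own strand, with CG dinucleotides in capitals. The windows are chr2:30845117-30845366 (plus strand) for Prrx2, chr3:66981772-66982021 (minus) for Shox2, chr19:46148326-46148575 (minus) for Pitx3 and chr1:163313651-163313900 (minus) for Prrx1. For Shox2 and Pitx3 the table's start is the 5′ end of the RefSeq gene, from which all distances given here are counted. For Prrx2 and Prrx1 it is a start inside the gene, so that their windows lie 53 to 302 and 1245 to 1494 bp downstream of that 5′ end. Alx1, Alx4 and Pitx1 are not shown.
Prrx2: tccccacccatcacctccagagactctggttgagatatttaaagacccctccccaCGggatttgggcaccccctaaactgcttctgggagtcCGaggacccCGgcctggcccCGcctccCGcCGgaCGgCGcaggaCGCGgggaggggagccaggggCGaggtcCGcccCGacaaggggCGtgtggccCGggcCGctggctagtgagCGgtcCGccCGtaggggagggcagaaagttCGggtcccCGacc
Shox2: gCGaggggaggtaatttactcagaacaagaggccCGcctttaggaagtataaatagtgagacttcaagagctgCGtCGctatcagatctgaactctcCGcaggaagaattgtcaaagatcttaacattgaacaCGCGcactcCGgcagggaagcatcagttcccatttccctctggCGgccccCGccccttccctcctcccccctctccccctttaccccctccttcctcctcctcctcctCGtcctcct
Pitx3: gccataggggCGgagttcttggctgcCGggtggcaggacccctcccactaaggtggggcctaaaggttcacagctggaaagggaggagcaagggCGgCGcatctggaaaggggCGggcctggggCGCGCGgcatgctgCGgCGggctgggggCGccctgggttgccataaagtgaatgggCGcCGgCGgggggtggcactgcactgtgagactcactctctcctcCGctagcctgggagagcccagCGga
Prrx1: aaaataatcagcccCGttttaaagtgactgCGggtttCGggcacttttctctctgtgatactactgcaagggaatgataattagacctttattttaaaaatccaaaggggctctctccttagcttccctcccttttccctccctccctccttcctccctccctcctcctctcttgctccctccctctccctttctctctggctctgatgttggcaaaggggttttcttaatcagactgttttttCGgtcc
The Prrx2 window held 21 CG dinucleotides and the Pitx3 window 16, compared with a median of 6 over 32841 promoter windows of the same length. The Shox2 window held 11 and the Prrx1 window 4, and 37.8% of all windows held fewer than that of Prrx1. G and C made up 70% of the Prrx2 window, 68.8% of that of Pitx3, 55.6% of that of Shox2 and 47.6% of that of Prrx1, with a median of 52.4% over all windows. Peaks of wild-type replicates 1 and 3 overlapped the Prrx2 window, and no peak of any of the 12 lists overlapped the others. The CG-rich Pitx3 window thus held no peak in any list. Further upstream of Shox2, outside its window, 9 lists had a peak between -3218 and -270 bp, assigned to the neighbour Rsrc1.

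The lists of the genotypes differ as a whole. HIF1dPA lists held 482 to 501 H3K27me3 peaks, compared with 3433 to 3776 in wild-type, 3358 to 3679 in mfn2-/- and 3636 to 4035 in vhl-/- lists. The X chromosome held on average 30.2% of the peaks of mfn2-/- lists and at most 1.24% of those of any other list. All 7 genes are autosomal, and the number of autosomal peaks was 2342 to 2574 in mfn2-/-, 3427 to 3763 in wild-type and 3626 to 4023 in vhl-/- lists. Sequencing depth is unknown, so list length and depth cannot be told apart. A gene without a peak is one where no peak passed the p-value of 1e-05 at which the lists stop.

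Wild-type lists had a peak at 5, 4 and 5 of the 7 genes, each mfn2-/- list at 4, each vhl-/- list at 5, and HIF1dPA lists at 1, 2 and 2. The means were 4.67 ± 0.577, 4 ± 0, 5 ± 0 and 1.67 ± 0.577 (SD, n = 3 each). Of 21896 protein-coding genes, the share with a peak was 6.70% ± 0.350 for wild-type, 5.52% ± 0.290 for mfn2-/-, 6.93% ± 0.347 for vhl-/- and 1.41% ± 0.0439 for HIF1dPA. HIF1dPA lists were thus lower in both counts. When only the 482 strongest peaks of each list were kept, the 7 genes with a peak numbered 4, 2 and 3 (wild-type), 3, 3 and 2 (mfn2-/-), 3, 3 and 2 (vhl-/-) and 1, 2 and 2 (HIF1dPA). At equal list length the HIF1dPA counts overlapped those of the other genotypes.

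**Figure D1:**
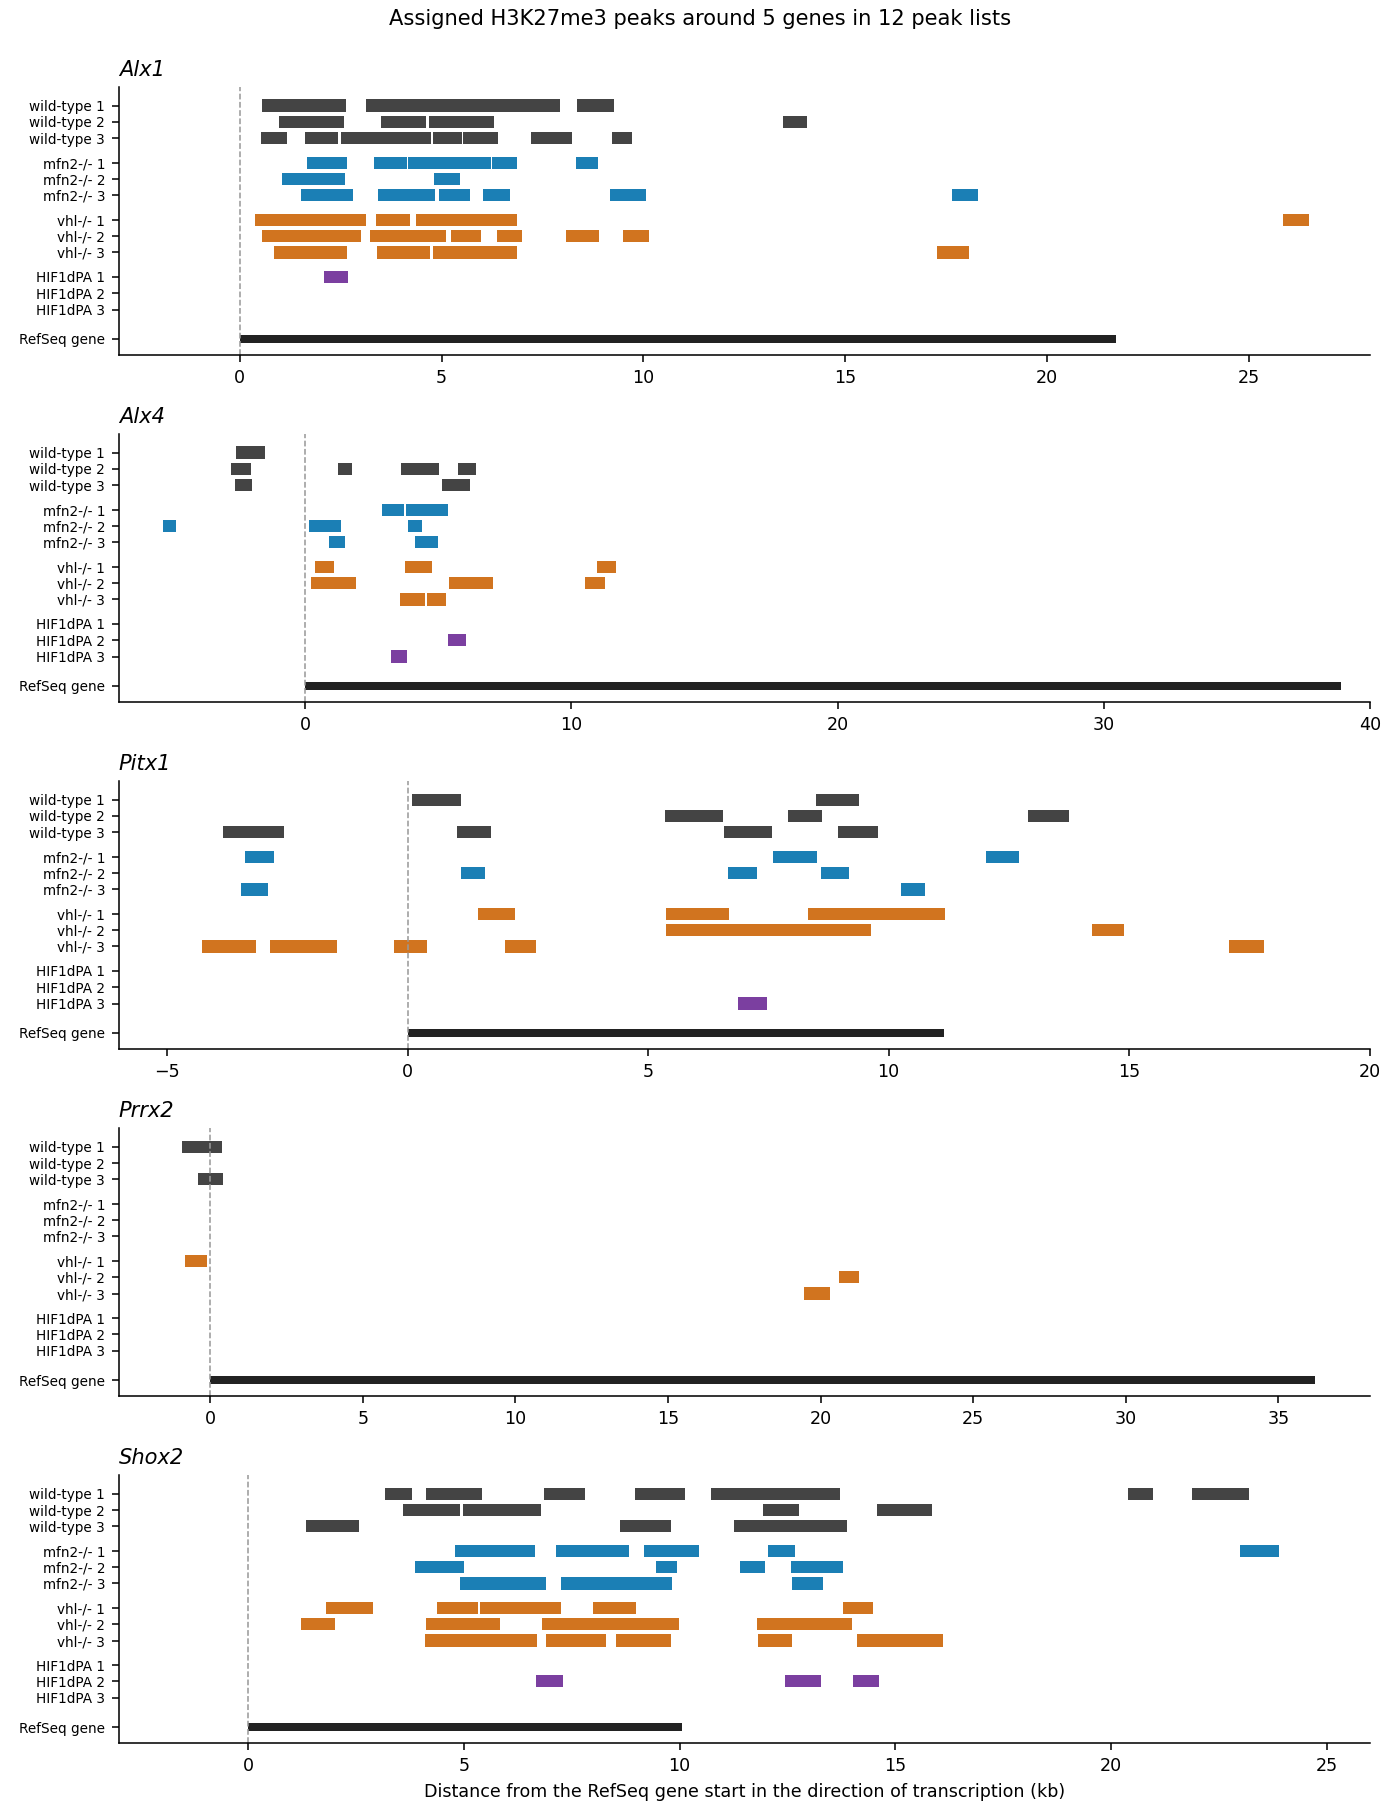
Position of every H3K27me3 peak assigned to Alx1, Alx4, Pitx1, Prrx2 and Shox2 in the 12 lists, as distance in kb from the RefSeq gene start in the direction of transcription. Coloured bars are peaks, 1 row per list, and the black bar is the RefSeq gene; 2 Shox2 peaks far downstream are not drawn. Peaks at Alx1 and Shox2 lie inside and downstream of the gene start in 9 wild-type, mfn2-/- and vhl-/- lists, while no base of Pitx1 is covered in all 3 lists of any genotype.

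Alx1 (ENSMUSG00000036602, chr10:103007847-103029549, minus strand) had the highest-ranking peak among the members and the smallest share of bases covered in 1 list only (23.0%). It had 42 peaks in 10 lists, of which the authors' annotation put 38 in promoter classes, 3 in introns and 1 in intergenic sequence. The covered length, which is the sum of the widths of the assigned peaks, was 7826, 4937 and 6881 bp in wild-type replicates 1 to 3. In mfn2-/- lists it was 4995, 2212 and 5639 bp, in vhl-/- lists 6744, 7133 and 6020 bp, and in HIF1dPA lists 603, 0 and 0 bp. The wild-type, mfn2-/- and vhl-/- values overlapped, except that every vhl-/- list covered more than every mfn2-/- list, and every HIF1dPA value lay below all others.

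A stretch of 370 bp in the gene, chr10:103027105-103027474, lay under a peak in all 10 lists with a peak, the HIF1dPA list included. Bases shared by all 3 lists of a genotype numbered 3808 in wild-type, 1470 in mfn2-/- and 4541 in vhl-/-. The largest peak, of 4823 bp in wild-type replicate 1, ranked 4 of 3776 in its list by score, which is 10 times −log10 of the p-value given to the peak. No peak assigned to Alx1 reached the RefSeq gene start, and the first covered base lay 372 bp inside the gene. Across the genotypes, covered length at Alx1 did not pass the threshold (exact permutation p = 0.00247, Benjamini-Hochberg adjusted p = 0.0579), although the means were 6548 ± 1473, 4282 ± 1821, 6632 ± 565 and 201 ± 348 bp in wild-type, mfn2-/-, vhl-/- and HIF1dPA (SD, n = 3 each). It passed in 3 of 26 alternatives, with wild-type replicate 2 left out, with scores of at least 100 and on the log2 scale. The adjusted p in these was 0.0439, 0.0462 and 0.0485 (exact permutation test with Benjamini-Hochberg adjustment). In the other 23 alternatives covered length at Alx1 did not pass. Without the HIF1dPA lists the adjusted p was 0.497 and the unadjusted p 0.136 (same test). With equal numbers of strongest peaks they were 0.132 and 0.0206 (same test).

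The mark went on upstream of Alx1, where the authors had assigned it to the neighbour Gm17028. Gm17028 had 29 peaks in 10 lists, between -8484 and 333 bp from the Alx1 start. In wild-type lists they covered 3307, 3304 and 2315 bp, in mfn2-/- lists 2228, 1701 and 2898 bp, in vhl-/- lists 2084, 5729 and 4472 bp, and in HIF1dPA lists 586, 0 and 0 bp. Peaks assigned to Gm17028 lay over the Alx1 start itself in 3 lists, mfn2-/- replicate 3, vhl-/- replicate 2 and HIF1dPA replicate 1. With these peaks added to Alx1, the adjusted p across genotypes was 0.0540 (exact permutation test, Benjamini-Hochberg).

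Shox2 (ENSMUSG00000027833, chr3:66971723-66981771, minus strand) was covered along the gene body and beyond its end. Of its 45 peaks, in 10 lists, 19 were classed as distal intergenic, 14 as promoter, 10 as 3′ UTR and 2 as intron. Wild-type lists covered 8940, 5784 and 5029 bp of it, mfn2-/- lists 6369, 3406 and 5288 bp, vhl-/- lists 6263, 7886 and 8053 bp, and HIF1dPA lists 0, 2058 and 0 bp. Wild-type overlapped both mfn2-/- and vhl-/-, and the 1 HIF1dPA list with a peak lay below every list of the other genotypes. The means were 6584 ± 2075, 5021 ± 1499, 7401 ± 989 and 686 ± 1188 bp (SD, n = 3 each), with an exact permutation p of 0.00558 across genotypes that did not pass adjustment (Benjamini-Hochberg adjusted p = 0.0734). Shox2 did not pass in any of 26 alternatives. Without the HIF1dPA lists its adjusted p was 0.622 and its unadjusted p 0.296 (same test).

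In total 36626 bp of Shox2 peaks lay in the gene body and 22450 bp downstream, and none upstream. The base pairs covered in most lists, 57 bp at chr3:66969099-66969155, lay downstream of the gene end and under a peak in 8 lists, all 3 wild-type and all 3 mfn2-/- lists among them, 1 vhl-/- list and 1 HIF1dPA list. Wild-type replicate 2 and vhl-/- replicate 1 each had 1 low-scoring peak far downstream that was also assigned to Shox2, 234850 and 225281 bp from the start. Upstream of the start, between -3218 and -270 bp, 9 peaks in 9 lists were assigned to Rsrc1, the neighbouring gene. Their length was 2391, 1162 and 1338 bp (wild-type), 1111, 1082 and 0 bp (mfn2-/-), 2219, 2036 and 2152 bp (vhl-/-) and 0, 0 and 856 bp (HIF1dPA). No peak lay over the Shox2 start in any list.

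Pitx1 (ENSMUSG00000021506, chr13:55825044-55836190, minus strand), the hindlimb identity gene, was covered most in vhl-/- myofibers. Its covered length was 4929, 4930 and 4599 bp in vhl-/- lists, against 1904, 2776 and 3800 bp in wild-type lists. In mfn2-/- lists it was 2187, 1687 and 1060 bp, and in HIF1dPA lists 0, 0 and 606 bp. Every vhl-/- list covered more than every wild-type list, every HIF1dPA list covered less, and mfn2-/- overlapped wild-type. The means were 2827 ± 949, 1645 ± 565, 4819 ± 191 and 202 ± 350 bp in wild-type, mfn2-/-, vhl-/- and HIF1dPA (SD, n = 3 each).

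Covered length at Pitx1 differed across the 4 genotypes (exact permutation p = 0.00013, Benjamini-Hochberg adjusted p = 0.0415). It was the 1 member called, while 1.84% of the 2394 genes tested were called. Without the HIF1dPA lists the exact p was 0.00714 (smallest possible 0.00357, 280 arrangements) and the Benjamini-Hochberg adjusted p 0.219, in a design where no gene was called. The call was lost in 15 of 26 alternatives in all, among them each of the 3 that left out 1 HIF1dPA list (exact permutation test, Benjamini-Hochberg adjusted p = 0.0615 to 0.0765) and those without mfn2-/- replicate 1 (0.0545) or vhl-/- replicate 2 (0.0559).

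The vhl-/- lists covered similar lengths of Pitx1, in part at the same place. Replicates 1 and 2 shared 2613 bp, whereas replicate 3 shared 211 bp with replicate 1 and 0 bp with replicate 2. Replicates 1 and 2 each had a broad peak over the gene body, of 2850 and 3156 bp, ranked 58 in its list. Replicate 3 had its broadest peak, of 1403 bp, upstream of the start, and its 2793 bp of upstream coverage exceeded that of every other list. No base of Pitx1 was covered in all 3 lists of any genotype, and 49.2% of the 14521 bp covered in any list was covered in 1 list only. The 226 bp covered most often, chr13:55827018-55827243, lay under a peak in 5 lists, and only vhl-/- replicate 3 had a peak over the gene start. Pairs of wild-type lists shared 0 to 521 bp of Pitx1 and pairs of mfn2-/- lists 0 to 476 bp.

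Alx4 (ENSMUSG00000040310, chr2:93642434-93681341, plus strand) had 25 peaks in 11 lists, the most lists of any member, with 15 peaks in introns and 9 in promoter classes. Wild-type lists covered 1069, 3425 and 1642 bp of Alx4, mfn2-/- lists 2402, 2202 and 1492 bp, vhl-/- lists 2384, 4086 and 1666 bp, and HIF1dPA lists 0, 654 and 627 bp. Wild-type, mfn2-/- and vhl-/- lists overlapped, and the HIF1dPA lists lay below them. The means were 2045 ± 1229, 2032 ± 478, 2712 ± 1243 and 427 ± 370 bp (SD, n = 3 each), with no call across genotypes (exact permutation p = 0.0873, Benjamini-Hochberg adjusted p = 0.216).

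The Alx4 peaks also lay at different places. All 3 wild-type lists had a peak between -2787 and -1524 bp from the start, of 1069, 766 and 616 bp, and no mutant list had one there. The bounds of this stretch are those of the wild-type peaks, and the share of other sites that separate so was not counted. These peaks scored 87.5, 66.48 and 65.82 in wild-type replicates 1 to 3. The weakest peaks kept at equal list length scored 115.67, 104.85 and 105.4. At equal list length, wild-type lists thus had no peak there either. Of the mutant lists, mfn2-/- replicate 2 alone had an upstream peak, of 479 bp, at -5332 to -4854 bp. In the body, 286 bp of the first intron, chr2:93646549-93646834, lay under a peak in 6 lists, all 3 mfn2-/-, 2 vhl-/- and 1 wild-type. No list had a peak over the Alx4 start.

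Prrx2 (ENSMUSG00000039476, chr2:30845064-30881251, plus strand), which acts with Prrx1 in limb mesenchyme, had 5 peaks in 5 lists. Covered length was 1318, 0 and 825 bp in wild-type and 724, 652 and 843 bp in vhl-/- lists, and 0 bp in every mfn2-/- and HIF1dPA list. Wild-type replicates 1 and 3 had their peak over the RefSeq start, at -944 to 373 and -411 to 413 bp, and these also overlapped the window printed above, which lies 53 to 302 bp inside the gene. Of the vhl-/- lists, replicate 1 had its peak at -839 to -116 bp, just upstream of the gene, while replicates 2 and 3 had theirs inside the first intron, at 20610 to 21261 and 19464 to 20306 bp. Presence in all vhl-/- lists thus did not mean the same site. Prrx2 was not called across genotypes (exact permutation p = 0.0545, Benjamini-Hochberg adjusted p = 0.157), with means of 714 ± 666 bp in wild-type and 740 ± 96.5 bp in vhl-/- (SD, n = 3 each). With wild-type replicate 2 left out, the wild-type list without a Prrx2 peak, the adjusted p was 0.0439 (exact permutation test, Benjamini-Hochberg). This was the only 1 of 23 alternatives in which Prrx2 passed, and the adjusted p ran up to 0.515 over them (same test).

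Pitx3 (chr19:46135281-46148325) and Prrx1 (chr1:163245119-163315145) had no assigned H3K27me3 or H3K9me3 peak in any of the 24 lists. Within 10 kb of the Pitx3 span, a single H3K27me3 peak of 893 bp was listed, in wild-type replicate 3 with a score of 56.2, and it was assigned to Elovl3. No peak of either mark lay within 10 kb of Prrx1.

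**Figure D2:**
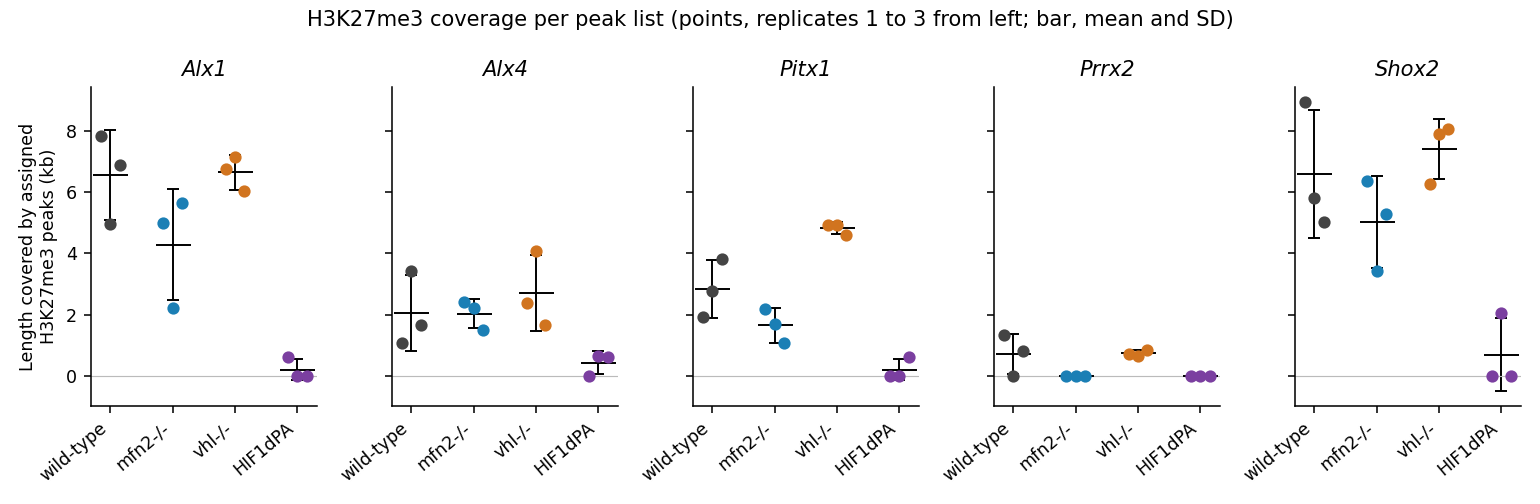
Length in kb covered by the H3K27me3 peaks assigned to each of 5 genes, by genotype. Points are the 3 lists of a genotype, and the horizontal and vertical bars are the mean and SD. At Pitx1 the vhl-/- lists, at 4599 to 4930 bp, lie above the wild-type lists, at 1904 to 3800 bp, and HIF1dPA lists are lowest for all genes but Prrx2, where they share 0 bp with mfn2-/- lists.

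The genotypes were next compared one by one. With 3 lists against 3, an exact test cannot go below 0.1, so separation of the lists is given as counts beside the share of all genes that separated in the same way. All comparisons with wild-type share its 3 lists. Every wild-type list covered more than every HIF1dPA list at 4 of the 4 members with enough peaks to count (Pitx1, Alx1, Alx4 and Shox2), while 74.9% of 925 genes did so. The reverse held for 0 members and 0.324% of genes. These 4 members each had a peak in every wild-type list, which alone made them count. HIF1dPA lists were short as a whole, and the part of list length in this separation was not tested.

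Every vhl-/- list covered more than every wild-type list at 1 of 5 members, Pitx1, and at 8.34% of 1786 genes, and the reverse held for 0 members and 3.25% of genes. Wild-type and mfn2-/- lists separated at 0 of 4 members in either direction. Of all genes, wild-type was higher at 15.5% and mfn2-/- at 14.7%, or 17.9% and 2.29% of 1355 autosomal genes. Between mutants, every vhl-/- list covered more than every mfn2-/- list at 3 of 5 members, Pitx1, Prrx2 and Alx1, compared with 21.4% of all genes and 24.4% of autosomal genes. The reverse held for 0 members, 13.6% of all genes and 1.49% of autosomal genes. Prrx2 had no mfn2-/- peak and was counted only because all 3 vhl-/- lists had one, which fixed its separation in advance. Over autosomal genes, mfn2-/- lists thus fell below vhl-/- lists more often than the reverse, as at Pitx1 and Alx1. The mfn2-/- lists also held fewer autosomal peaks, 2342 to 2574 against 3626 to 4023 in vhl-/- lists. The part of list length in this separation was not tested.

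Separation by presence of a peak is a stricter form of separation by covered length, so it could not hold for more genes. No member had a peak in all 3 wild-type lists and in none of a mutant, compared with 5.89% of genes for mfn2-/- (6.79% on autosomes), 1.46% for vhl-/- and 42.1% for HIF1dPA. No member had a peak in all 3 lists of a mutant and in no wild-type list either, compared with 12.9% for mfn2-/- (0.664% on autosomes), 2.07% for vhl-/- and 0.108% for HIF1dPA. Prrx2 had a peak in all 3 vhl-/- lists and no mfn2-/- list, as did 6.32% of genes (7.23% on autosomes), and no member showed the reverse, as did 12.4% (0.638% on autosomes). Prrx2 was counted here only through its vhl-/- lists, so its presence adds nothing to the separation given above.

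With the 9 mutant lists pooled against the 3 wild-type lists, no member was called (exact two-sided permutation test, 220 arrangements, smallest p 0.00455). The share of all genes called was 0% of 2394 after Benjamini-Hochberg adjustment, and 219 genes (9.15%) but no member had an unadjusted p under 0.05. A call would need many genes tied at the smallest p, so the absence of calls says little. Mutant lists covered less on average at all 5 members, with differences of -2843 bp at Alx1, -2215 bp at Shox2, -605 bp at Pitx1, -468 bp at Prrx2 and -322 bp at Alx4 (exact p = 0.159, 0.295, 0.645, 0.268 and 0.727). Of all genes tested, 69.0% were lower in the mutants, with a median difference of -222 bp. When HIF1dPA lists were left out, the differences at Pitx1 and Alx4 turned to 405 and 327 bp, and without wild-type replicate 2 that at Alx4 turned to 368 bp. An unadjusted p under 0.05 in the test of 4 genotypes was found for 3 of 5 members (Pitx1, Alx1 and Shox2) and 33.2% of all genes.

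**Figure D3:**
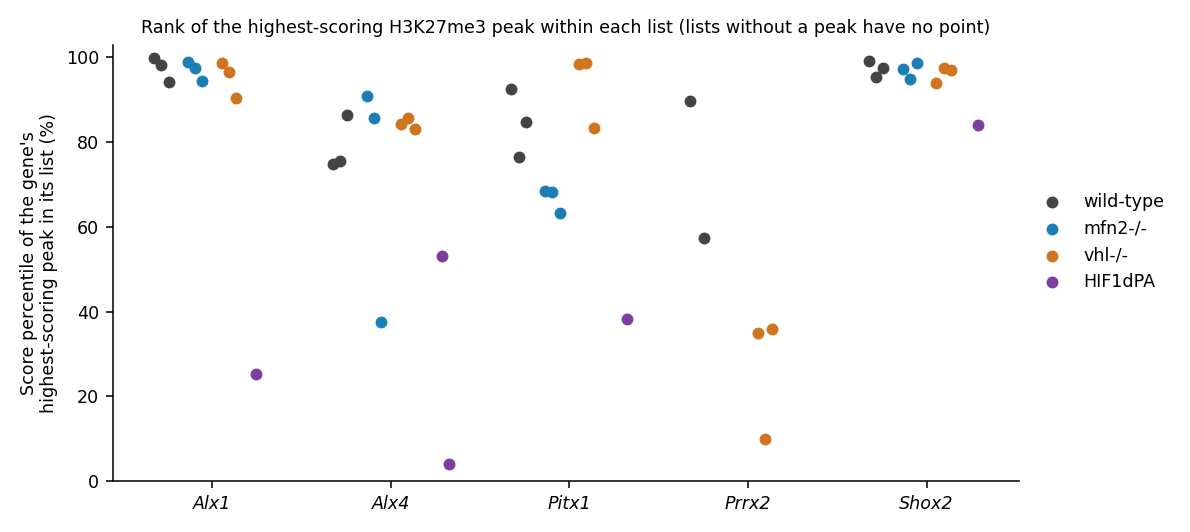
Score percentile of each gene's highest-scoring H3K27me3 peak within its own list, meaning the percentage of the list's other peaks with a lower score, by gene and genotype. Each point is 1 list. Alx1 and Shox2 sit above 90% in every wild-type, mfn2-/- and vhl-/- list, while Prrx2 sits lower in vhl-/- than in wild-type lists.

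Because the score grows with sequencing depth, peaks were ranked within their own list. The highest-scoring Alx1 peak stood at the 94.2 to 99.9 percentile in wild-type, 94.5 to 99.0 in mfn2-/- and 90.3 to 98.6 in vhl-/- lists, and that of Shox2 at 95.3 to 99.2, 94.9 to 98.6 and 93.9 to 97.4. Both genes thus held a peak at the 90.3 percentile or above in every such list, and the 3 genotypes overlapped in rank. At Pitx1 the ranges were 76.4 to 92.4 in wild-type, 63.2 to 68.5 in mfn2-/- and 83.3 to 98.6 in vhl-/- lists. The mfn2-/- percentiles lay below those of wild-type for the highest-scoring peak, but the mean percentile over all Pitx1 peaks of a list overlapped (43.9, 56.2 and 46.8 in mfn2-/-, 78.7, 51.5 and 57.4 in wild-type). Peaks on the X chromosome count in the mfn2-/- ranks, and their part in these percentiles was not tested.

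At Alx4 the percentiles were 74.8, 75.6 and 86.4 in wild-type, 90.8, 85.7 and 37.6 in mfn2-/- and 84.2, 85.6 and 83.0 in vhl-/- lists. The Prrx2 peaks stood at 89.6 and 57.4 in the wild-type lists that had one, and at 35.0, 9.92 and 35.8 in vhl-/- lists. The vhl-/- peaks of Prrx2 were thus weak for their lists and lower in rank than both wild-type peaks. In HIF1dPA lists the highest-scoring peaks stood at 25.4 for Alx1, 38.2 for Pitx1, 53.2 and 4 for Alx4 and 84.1 for Shox2.

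The members were compared with 2 lists of related genes. Of 27 other paired-class homeobox genes in RefSeq, 23 had a peak in at least 1 list, and 1 of 21 tested was called across genotypes. Of 44 other limb bud patterning genes, 39 had a peak, and 2 of 31 tested were called. Among all genes tested, 1.84% were called, as given above. The called genes, named after their values were seen, were Otx1, a forebrain patterning gene, Msx1, which acts in limb bud and facial mesenchyme, and Sall1, a zinc finger factor of limb and kidney.

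Wild-type, mfn2-/-, vhl-/- and HIF1dPA lists covered 9112 ± 821, 7766 ± 2267, 12062 ± 419 and 584 ± 1011 bp of Otx1 (exact permutation test, Benjamini-Hochberg adjusted p = 0.0444). Sall1 was covered by 4296 ± 1052, 5630 ± 1471, 7730 ± 1881 and 456 ± 790 bp, and Msx1 by 5580 ± 1554, 1562 ± 900, 4511 ± 876 and 0 ± 0 bp (exact permutation test, Benjamini-Hochberg adjusted p = 0.0495 for both, SD, n = 3 each). Otx1 and Sall1 were highest in vhl-/- lists, as was Pitx1, and Msx1 in wild-type lists. Mutant lists covered less on average at 71.4% of the tested paired-class genes (median difference -598 bp) and 67.7% of the limb genes (-258 bp), beside 69.0% of all genes.

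Several genes of both groups had peaks in more lists than Alx1, Shox2 and Pitx1, which had them in 10. Otp, which specifies hypothalamic neurons, and Pax6, the eye and forebrain gene, had a peak in all 12 lists, and Uncx and Otx2 in 11. Among limb genes, Tfap2b, Hoxd13 and Twist1 had a peak in all 12 lists, and Hand2, Meis2 and Irx5 in 11. HIF1dPA lists had a peak at 8, 7 and 5 of the 27 paired-class genes and at 10, 10 and 8 of the 44 limb genes, against 13 to 19 and 26 to 30 in the lists of the other genotypes.

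**Figure D4:**
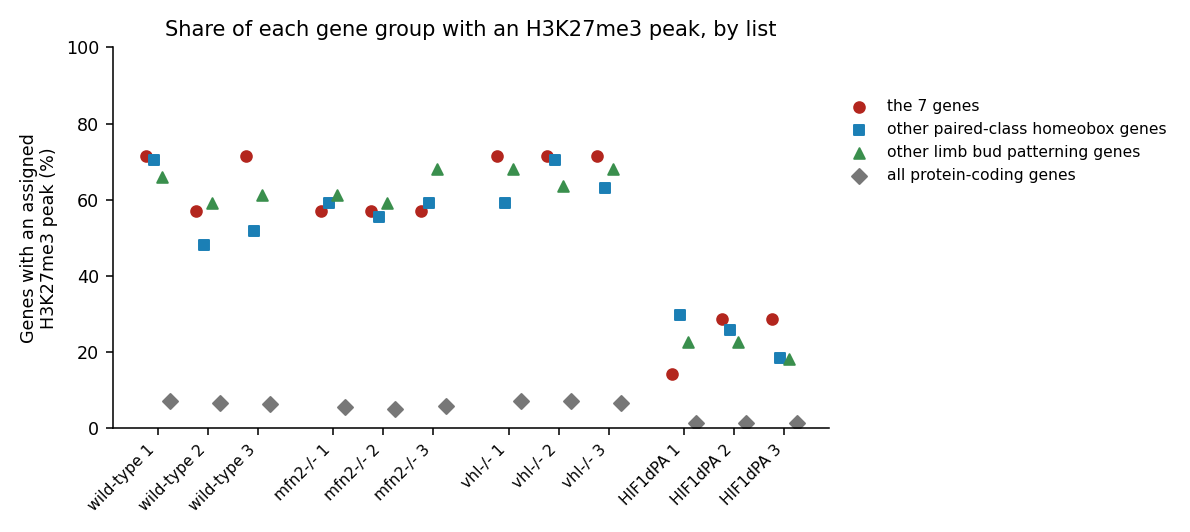
Percentage of genes with an assigned H3K27me3 peak in each of the 12 lists, for the 7 genes, 27 other paired-class homeobox genes, 44 other limb bud patterning genes and 21896 protein-coding genes. Each symbol is 1 gene group in 1 list. All 3 developmental groups lie above protein-coding genes as a whole in every list, and all groups are lowest in the HIF1dPA lists.

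Genes with the most similar pattern of covered length over the 12 lists were sought among 1652 genes with a peak in at least 4 lists. All genes share the same libraries and list lengths, so these values describe likeness only. Alx1 was most like Foxb2 (Pearson r = 0.981) and Hmga2 (0.958), and Shox2 most like Ostm1 (0.979) and Nkx6-1 (0.942). Pitx1 was most like Nkx3-2 (0.946) and Cadm1 (0.944), Prrx2 like Gm20546 (0.928) and Adcyap1 (0.922). Foxd4 was among the 2 genes most like Alx4 (0.898). Nkx3-2, a homeobox gene of the axial skeleton, followed Pitx1 with 5771 ± 1594, 3423 ± 1292, 9191 ± 2535 and 778 ± 336 bp in wild-type, mfn2-/-, vhl-/- and HIF1dPA lists (SD, n = 3 each). Among members, r over the 12 lists ranged from 0.111 for Prrx2 with Alx4 to 0.921 for Alx1 with Shox2.

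The labelled tissue was checked against marker genes, although lists of silencing marks hold no expression. Of 8 myofiber markers, among them Acta1, Ckm and Myh4, 0 had a peak of either mark. Of 6 connective tissue markers, Pdgfra had an H3K27me3 peak in 9 lists and the others in none, while Col3a1 had an H3K9me3 peak in 2 lists and Dcn in 1. No endothelial marker of 3 had an H3K27me3 peak, and 1 of 3 immune markers, Ptprc, had one in 1 list. The endothelial marker Cdh5 and the immune marker Adgre1 each had an H3K9me3 peak in 1 list. The part of other cells in the peaks at the members was not tested.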

How the data were processed

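H3K9me3 and H3K27me3 ChIP-seq of regenerating myofibers was deposited as 1 peak list per library, 12 per mark, and the input library was not used. The authors called and annotated peaks per library. The submitters' processing notes name BWA 0.7.5, MACS, deepTools 3.5.0 and the mm10 build, without their settings. Each deposited peak has a score of 10 times −log10 of its p-value, and no score is below 50. The lists hold no counts, so depth is unknown and the score was only ranked within a list. The members and gene lists were chosen with earlier results of these data known.

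For each gene, the widths of its assigned peaks were summed per list. Genes with a peak in at least 3 of 12 lists were tested with exact permutation tests over lists, of the sum of squares between the 4 genotypes (15400 distinct arrangements, smallest p 6.49e-05) and of 3 wild-type against 9 mutant lists (220 arrangements, two-sided), with Benjamini-Hochberg adjustment over all 2394 genes. A call is an adjusted p under 0.05. Separation was counted over genes with a peak in at least 3 of the 6 lists compared. The tests were tested on simulated data, in which the values of unchanged genes were shuffled over the lists. Shuffling removes differences in list length, so the simulation does not bear on calls that follow list length. Gene spans and promoter sequences came from RefSeq (GRCm38.p6). For promoters, 4 of 7 members matched. Distances run from the 5′ end of the RefSeq span, while feature classes are the authors' and use other transcripts too. Named genes were all members, genes assigned other peaks within 10 kb, the 2 genes most like each member, and up to 6 genes of each comparison list with peaks in most lists. Some genes that this rule names are not reported here. Replicate numbers come from the sample titles, and the labels tie no number to a mouse or batch. Computations used numpy 2.4.6 and pandas 2.3.3 under Python 3.11.15, with plots from matplotlib 3.10.9.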

Additional observations from a re-analysis of the deposited data

Results flagged for a closer look

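In the full lists, the length covered at Pitx1 moved in opposite directions in vhl-/- and HIF1dPA myofibers. Every vhl-/- list covered more than every wild-type list (4819 ± 191 against 2827 ± 949 bp, SD, n = 3 each) and every HIF1dPA list covered less (202 ± 350 bp), so that the means of both mutants lay 4617 bp apart. The difference between these opposite changes was not tested. HIF1dPA lists were short as a whole, with 482 to 501 peaks, against 3433 to 3776 in wild-type and 3636 to 4035 in vhl-/- lists. With the 482 strongest peaks kept, Pitx1 had a peak in wild-type replicate 1, vhl-/- replicates 1 and 2 and HIF1dPA replicate 3. No other list had one, so neither direction then held in every list. The part of list length in the Pitx1 values was not tested further.

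A single peak of H3K9me3, a mark outside the comparisons above, was assigned to any of the 7 genes, to Shox2 in HIF1dPA replicate 2. It covered 514 bp at chr3:66915476-66915989, far downstream of the gene end at chr3:66971723. It was classed as distal intergenic, and with a score of 67.8 ranked 499 of 1709 in its list. The 3 wild-type H3K9me3 lists held no peak assigned to Shox2, nor did the other HIF1dPA lists. The difference was not tested.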

How the results depend on the processing

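The number of genes called across genotypes, 44 as reported, was 131 on the log2 scale, 19 with promoter classes only, 1 with equal numbers of strongest peaks (all or autosomal), 0 without HIF1dPA, with the longest peak, with presence, or with genes in at least 1 list, and 0 to 104 with 1 list left out. With the replicate number as a block (replicate block) 0 genes were called, and Pitx1 had an adjusted p of 0.179 (exact permutation test, Benjamini-Hochberg). The numbers did not pair the lists, as deviations of same-numbered lists correlated at -0.0408 to 0.0676 (18 pairs), and 3 of 12 lists correlated best with their own number. Wild-type against mutants called 0 genes in every alternative run. With a smallest p of 0.00455 in the main exact permutation test, a call needs many genes tied at that value. The absence of calls therefore says little. The adjusted p of Pitx1 ran from 0.0353 to 0.426, and the causes were not tested. It was 0.391 with equal numbers of peaks, where the unadjusted p was also high (0.182, exact permutation test, 462 genes tested). Mean percentiles over a gene's peaks, in place of the highest-scoring peak, moved 12 of 18 percentile values. A move was a change of more than 1 SD, except for Shox2 in HIF1dPA, where only 1 list had a peak and there was no SD. Values from lists with a single peak of the gene could not change.

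Mutant minus wild-type covered length turned positive at Alx4 with scores of at least 100 (348 bp), equal numbers of peaks (38.2 bp), without HIF1dPA (327 bp) and without wild-type replicate 2 (368 bp, range -810 to 368 bp over left-out lists). It turned positive at Pitx1 with scores of at least 100 (423 bp), equal numbers, also autosomal (521 bp), and without HIF1dPA (405 bp), and at Shox2 with equal numbers, also autosomal (19 bp).

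The difference in the number of the 7 genes with a peak was -3 for HIF1dPA, and -1.33 with equal numbers, -1.67 with equal autosomal numbers and -4 with promoter classes. For vhl-/- it was 0.333, and -0.333 with equal numbers (also autosomal) and -0.667 with promoter classes. With 1 list left out it ran from -3.33 to -2.67 (HIF1dPA), -1 to -0.5 (mfn2-/-) and 0 to 0.5 (vhl-/-).

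Over all genes, those with a peak in every list of one genotype and none of another depended on the peaks kept. The settings are scores of at least 100, equal numbers and equal autosomal numbers, in that order. Wild-type and no HIF1dPA gave 389, then 138, 29 and 28 (389 to 639 with 1 list left out), and the reverse 1, then 0, 8 and 6 (1 to 6). Wild-type and no mfn2-/- gave 92, then 10, 4 and 4 (92 to 218), and the reverse 202, then 11, 13 and 6 (202 to 279), or 9 on autosomes. Wild-type and no vhl-/- gave 26, then 3, 5 and 5 (26 to 89), and the reverse 37, then 13, 6 and 6 (37 to 108). Promoter classes gave 59 and 30 for mfn2-/-, 16 for wild-type and no vhl-/-, and 0 for HIF1dPA and no wild-type. The alternatives on autosomes and on the 10 kb and 3 kb windows around the RefSeq span were chosen after seeing the data. Depth is unknown, so a gene without a peak was not detected at the cutoff, and HIF1dPA lists limit what can be said of absence there.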
